A study of Mus musculus with 12 samples.

Results

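The genes described here are the metallothioneins and zinc transporters of the mouse liver: *Mt1* and *Mt2*, *Mtf1*, the SLC30 exporter genes *Slc30a1* and *Slc30a10*, and the SLC39 importer genes *Slc39a14* and *Slc39a4*. They were chosen by gene symbol, are 7 of the 45777 genes in the expression table, and all 7 passed the filter on low counts in every comparison. Liver RNA from 12 male C57BL/6 mice, aged 10 to 12 weeks by the labels, was sequenced as poly-A libraries, from 4 groups of 3 animals. WT mice and mice labelled as lacking Gα12 (*Gna12* KO, compared with age-matched WT littermates) received vehicle or acetaminophen (APAP), a painkiller that injures the liver in overdose. APAP was given once into the abdomen at 300 mg/kg after an overnight fast, and the liver was taken 6 h later. The question the groups address is how the livers responded to APAP and whether the genotype changed that response.

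Metallothioneins are small proteins, rich in cysteine, that bind zinc and copper and can take up oxidants. Zinc that is set free in the cell is sensed by MTF1, a zinc finger transcription factor that binds metal response elements and switches on *Mt1*, *Mt2* and *Slc30a1*. In the liver metallothioneins are also known to rise with glucocorticoids and with interleukin-6 in the acute phase response, together with the zinc importer ZIP14, the product of *Slc39a14*.

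Some features of the libraries touch every result below. Each library held between 49737950 and 69566079 reads assigned to genes, and no member had fewer than 437 reads in any liver, so the spread between livers and not counting set the precision. *Gna12* lay between 34.8 and 66.7 CPM (counts of reads scaled to a common library size with TMM factors) in the WT vehicle livers, 54.6 and 67.2 CPM in the vehicle livers labelled KO, 23.7 and 58.1 CPM in the WT APAP livers, and 43.5 and 48.3 CPM in the APAP livers labelled KO. It was not lower under the KO label, which is therefore used only as a label. Counts summed over the whole gene cannot show whether a part of it was deleted. The authors reported PCR of tail DNA, quantitative PCR of liver RNA and Gα12 immunoblots for WT and *Gna12* KO mice. Hepatocyte markers were high in each liver (summed 62317 to 128643 CPM over the 5 of 6 markers in the table). The 5 pancreatic acinar markers summed to at most 0.623 CPM, and 3 of them (*Cela3b*, *Cpa1* and *Pnlip*) were at 0 throughout. A pair of livers stood apart. In WT vehicle replicate 2 all 9 genes of a list of interleukin-6-responsive and acute phase genes were above the other 5 vehicle livers, by a median of 4.02 on the log2 scale. How many of all genes were highest in this liver was not counted. In WT APAP replicate 1 the 5 erythroid markers summed to 17361 CPM, against 253 to 749 CPM in the other livers, and the 6 neutrophil markers to 121 CPM, against 0.169 to 18.0 CPM in the other livers. The neutrophil markers also moved with the groups: they summed to 7.86 to 121 CPM in the 3 WT APAP livers, 0.543 to 5.71 CPM in the APAP livers labelled KO, and at most 0.840 CPM in 5 of the 6 vehicle livers, with 15.5 CPM in WT vehicle replicate 2. Cholangiocyte markers moved with treatment (4 of 4 in the table, summed 18.0 to 40.2 CPM after APAP and 2.53 to 7.71 CPM with vehicle). The summed markers of Kupffer cells (63.8 to 171 CPM), sinusoidal endothelium (93.4 to 169 CPM) and stellate cells (128 to 313 CPM) overlapped between treatments. The part of these cells in the results was not tested. In bulk tissue, fewer cells of a type and less RNA per cell cannot be told apart.

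The coding sequences of both metallothioneins are shown because they show the cysteine content the family is known for. *Mt2* (gene ID 17750, chromosome 8 from 94172618 to 94173567, + strand, GRCm38) ends 5315 bases before *Mt1* (gene ID 17748, chromosome 8 from 94178883 to 94180327, + strand). Each reading frame, taken from the GENCODE vM21 transcripts Mt1-201 and Mt2-201, has 186 bases including the stop codon. Of the 61 codons before the stop, 20 (32.8%) are TGC or TGT, the codons of cysteine, printed in capitals.
Mt1 coding sequence: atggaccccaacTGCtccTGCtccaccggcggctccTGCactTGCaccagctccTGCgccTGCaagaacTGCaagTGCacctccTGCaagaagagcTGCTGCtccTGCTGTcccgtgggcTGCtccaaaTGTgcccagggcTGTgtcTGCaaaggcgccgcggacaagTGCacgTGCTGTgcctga
Mt2 coding sequence: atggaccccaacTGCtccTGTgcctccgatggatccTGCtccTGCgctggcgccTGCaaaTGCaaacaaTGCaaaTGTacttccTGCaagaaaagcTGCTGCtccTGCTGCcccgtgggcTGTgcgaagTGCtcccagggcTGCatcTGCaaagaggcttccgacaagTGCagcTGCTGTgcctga
The cysteine codons stand at the same 20 positions in both genes, although only 34 of 62 codons are identical and 148 of 186 bases (79.6%) match. No stretch of 50 bases was shared between *Mt1* and any other annotated transcript, so reads of that length from *Mt1* and *Mt2* can be told apart. *Mt2* shared 45.8% of its 50-base stretches with *Gm45774*, an overlapping antisense gene that is not in the expression table. How strand was treated in counting is not given in the sources used here, so reads of this antisense gene may be included in *Mt2*.

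The promoters of both metallothionein genes and both exporter genes, the 4 members called higher under the KO label, are shown with the metal response element (MRE) core in capitals, searched as TGCACNC or TGCGCNC on both strands. The windows, found for 5 of the 7 members, are those of RefSeq for GRCm38.p6, + strand, and run from 250 bases before the annotated start to 30 bases after it. They are *Mt1* at chr8:94178839-94179118, *Mt2* at chr8:94172368-94172647, *Slc30a1* at chr1:191906531-191906810 and *Slc30a10* at chr1:185454598-185454877.
Mt1 promoter: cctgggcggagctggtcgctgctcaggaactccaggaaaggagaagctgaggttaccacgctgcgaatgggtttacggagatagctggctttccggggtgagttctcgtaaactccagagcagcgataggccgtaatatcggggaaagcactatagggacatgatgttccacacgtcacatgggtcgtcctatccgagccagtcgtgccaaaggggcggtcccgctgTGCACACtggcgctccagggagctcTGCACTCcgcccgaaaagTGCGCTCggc
Mt2 promoter: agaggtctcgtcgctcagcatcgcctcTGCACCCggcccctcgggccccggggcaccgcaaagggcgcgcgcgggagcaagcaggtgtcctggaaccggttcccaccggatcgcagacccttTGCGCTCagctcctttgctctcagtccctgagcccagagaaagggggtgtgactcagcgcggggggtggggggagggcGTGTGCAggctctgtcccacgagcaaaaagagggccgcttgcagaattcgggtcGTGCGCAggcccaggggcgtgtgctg
Slc30a1 promoter: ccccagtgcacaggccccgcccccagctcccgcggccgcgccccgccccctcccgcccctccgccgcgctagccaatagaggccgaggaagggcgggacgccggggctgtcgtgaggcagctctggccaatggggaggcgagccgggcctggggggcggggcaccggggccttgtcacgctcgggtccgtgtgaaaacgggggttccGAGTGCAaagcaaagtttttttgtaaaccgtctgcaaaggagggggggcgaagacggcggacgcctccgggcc
Slc30a10 promoter: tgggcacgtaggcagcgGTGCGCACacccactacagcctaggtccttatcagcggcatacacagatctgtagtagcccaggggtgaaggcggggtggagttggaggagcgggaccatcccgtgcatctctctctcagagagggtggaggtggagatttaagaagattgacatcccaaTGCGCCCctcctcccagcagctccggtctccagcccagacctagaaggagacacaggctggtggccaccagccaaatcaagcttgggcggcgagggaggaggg
In the full RefSeq windows, which go on to 50 bases after the start, the *Mt2* window held 4 MRE cores, those of *Mt1* and *Slc30a10* 3 each, that of *Slc30a1* 2 (the second begins 31 bases after the start, outside the printed stretch) and that of *Mtf1* 0. At least 1 core was present in 25.7% of the 32851 RefSeq windows of this length, at least 2 in 7.11%, at least 3 in 1.97% and at least 4 in 0.517%. The first 2 cores of *Slc30a10* overlap as a palindrome on opposite strands. The *Mt1* window is set on the start at position 94179089, and GENCODE also lists *Mt1* transcripts that start downstream of it at 94179211 and 94179241. The full *Mt1* window ends at 94179138, so the bases between it and those starts were not searched for any core. The antioxidant element core TGACNNNGC, present in 12.4% of windows, occurred 1 time each in *Mt2* and *Slc30a1*, in both without overlap with an MRE core. The STAT core TTCNNNGAA, present in 8.30% of windows, was in none of the 5 member windows (it reads the same on both strands). These are matches of letters, and no binding was measured.

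*Mt1* and *Mt2*, the zinc buffers of the liver cell, were higher in the APAP livers than in 5 of the 6 vehicle livers, and WT vehicle replicate 2 was the exception for both. *Mt1* was at 155, 2286 and 181 CPM in the WT vehicle livers (replicates 1 to 3), at 128, 228 and 436 CPM in the vehicle livers labelled KO, at 4967, 946 and 2058 CPM in the WT APAP livers, and at 1150.4, 1377 and 1832 CPM in the APAP livers labelled KO. *Mt2* was at 89.5, 2119.6 and 104 CPM, at 66.3, 148 and 209 CPM, at 2507, 593 and 1622 CPM, and at 787, 1019.7 and 1549 CPM in the same livers. Without WT vehicle replicate 2 the lowest APAP liver (WT APAP replicate 2) lay above the highest vehicle liver for either gene. With it, the treatments overlapped. In the fit over both genotype labels *Mt1* rose by a log2 fold change of 2.03 ± 0.66 (standard error, 6 against 6 livers), past the threshold with edgeR's quasi-likelihood test (Benjamini-Hochberg adjusted p = 0.0377). The call was kept in 2 of the 12 fits that left out a liver (WT vehicle replicate 2 or WT APAP replicate 2) and lost in the other 10, with adjusted p-values up to 0.0909. The log2 fold change of *Mt2* was 2.01 ± 0.78, and it did not pass (edgeR's adjusted p = 0.0782). The calls of both genes depended on the method. *Mt2* passed with the Wald test of DESeq2 (adjusted p = 0.0194), with limma on log2 TPM (adjusted p = 0.00663 and 0.00548 at pseudocounts of 1 and 0.1) and without WT APAP replicate 2 (edgeR's adjusted p = 0.0465), whereas *Mt1* lost its call with the Wald test of DESeq2 (adjusted p = 0.0681). Without WT vehicle replicate 2 the log2 fold changes were 3.11 for *Mt1* and 3.43 for *Mt2* (edgeR's adjusted p = 0.000976 and 0.000216). Without both livers that stood apart they were 2.75 and 3.21 (edgeR's adjusted p = 0.000195 and 0.00012).

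**Figure D1:**
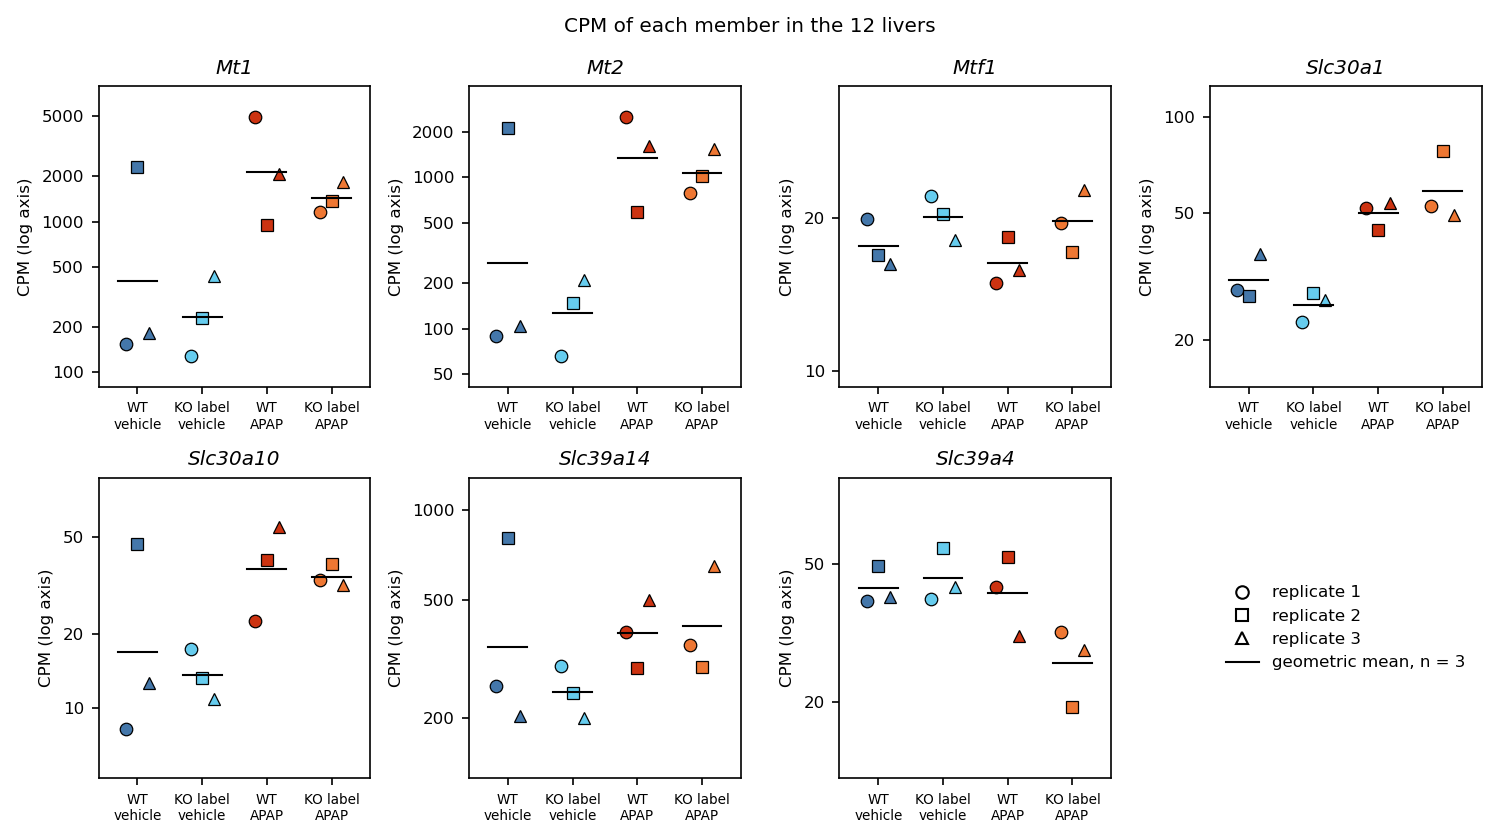
CPM after TMM scaling of the 7 members in the 12 livers, on a log axis, with 3 livers per group, a symbol for each replicate number and a line at the geometric mean. WT vehicle replicate 2 (blue square) sits with the APAP livers for *Mt1*, *Mt2* and *Slc30a10*, and *Slc30a1* is the member whose 6 APAP livers (44.4 to 78.1 CPM) all lie above the 6 vehicle livers (22.9 to 37.2 CPM).

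Per unit of transcript length the metallothioneins were among the most abundant transcripts after APAP. *Mt1* and *Mt2* together made up 0.0671% to 0.151% of all TPM (the authors' transcript abundances, scaled by length and library) in 5 vehicle livers, 1.14% in WT vehicle replicate 2, and 0.497% to 1.24% in the 6 APAP livers. *Mt1* ranked 106th to 256th among all genes by TPM in those 5 vehicle livers, 43rd in WT vehicle replicate 2, and 30th to 58th after APAP. *Mt1* exceeded *Mt2* in each of the 12 livers. The ratio of *Mt1* to *Mt2* TPM lay between 1.5 and 2.01 in the 5 vehicle livers, at 1.04 in WT vehicle replicate 2, and between 1.10 and 1.77 after APAP, so it ran lower where both genes were high, with overlap. The other metallothionein genes, *Mt3* and *Mt4*, which are known from brain and from stratified epithelium, had too few reads to be tested. They had 0 reads in each vehicle liver, which allows up to 3 reads, and at most 22 and 24 reads after APAP.

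**Figure D2:**
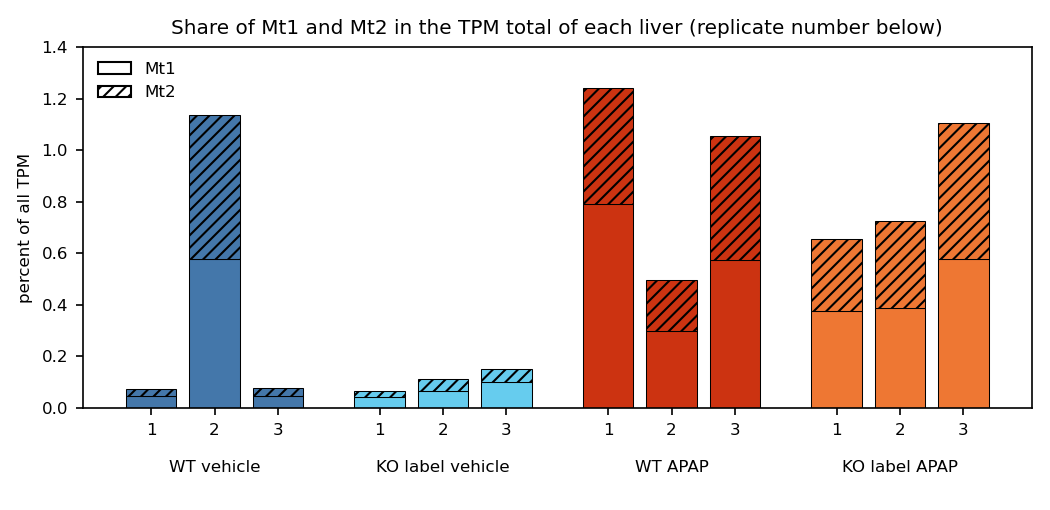
Share of *Mt1* (plain) and *Mt2* (hatched) in the TPM total of each liver, in percent, as stacked bars that start at 0. The bars reach 0.497% to 1.24% in the APAP livers and 1.14% in WT vehicle replicate 2, against 0.0671% to 0.151% in the other vehicle livers.

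*Mtf1* (gene ID 17764, chromosome 4 from 124802549 to 124849800), which encodes the zinc sensor that drives metallothionein transcription, did not pass the test. Its levels ranged from 16.3 to 22.1 CPM (median 19.0) in the 6 vehicle livers and from 14.9 to 22.8 CPM (median 17.8) in the 6 APAP livers, and the treatments overlapped almost fully. The log2 fold change was -0.07 ± 0.10 with a 95% interval from -0.29 to 0.15 (edgeR's adjusted p = 0.662). Antisense reads may be part of this value, since *1110065P20Rik* overlaps *Mtf1* on the other strand and had 20.0% to 51.2% as many reads.

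*Slc30a1* (gene ID 22782, chromosome 1 from 191906697 to 191913248, + strand) encodes ZNT1, the zinc exporter of the plasma membrane. It was at 28.7, 27.6 and 37.2 CPM in the WT vehicle livers, at 22.9, 28.1 and 26.8 CPM in the vehicle livers labelled KO, at 52.0, 44.4 and 53.7 CPM in the WT APAP livers, and at 52.6, 78.1 and 49.5 CPM in the APAP livers labelled KO. Each APAP liver was above each vehicle liver, and WT vehicle replicate 2 was among the low ones. *Slc30a1* rose by 0.95 ± 0.15 on the log2 scale, or 1.93-fold (edgeR's adjusted p = 0.000726), and was called in 12 of 12 fits with a liver left out (log2 fold change 0.81 to 1.04). The separation depended on the scale: by TPM, WT APAP replicate 1 was at 9.87, inside the vehicle range of 6.81 to 10.8, while the other 5 APAP livers were at 15.8 to 27.3. The antisense gene *1700034H15Rik*, which overlaps *Slc30a1*, had at most 2.56% as many reads.

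*Slc30a10* (gene ID 226781, chromosome 1 from 185454848 to 185468762, + strand), whose product is known mainly as an exporter of manganese, was at 8.20, 46.7 and 12.6 CPM in the WT vehicle livers, at 17.4, 13.3 and 10.9 CPM in the vehicle livers labelled KO, at 22.8, 40.4 and 54.9 CPM in the WT APAP livers, and at 33.3, 38.8 and 31.7 CPM in the APAP livers labelled KO. As with the metallothioneins, the single vehicle liver that reached the APAP range by CPM was WT vehicle replicate 2. By TPM, WT APAP replicate 1 was at 3.88, below vehicle replicate 1 of the KO label at 5.84. The TMM factor of WT APAP replicate 1 was 0.75. *Slc30a10* rose by 1.06 ± 0.36 on the log2 scale (edgeR's adjusted p = 0.0483), a call kept in 2 of 12 fits with a liver left out (WT vehicle replicate 2 or WT APAP replicate 1) and lost with no filter on low counts (edgeR's adjusted p = 0.0537). The value was 1.58 without WT vehicle replicate 2 (edgeR's adjusted p = 0.000619), and the 95% interval with all livers ran from 0.28 to 1.85. The overlapping antisense gene *Gm2061* had 2.79% to 8.35% as many reads.

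*Slc39a14* (gene ID 213053, chromosome 14 from 70303467 to 70351452, - strand), which encodes the zinc, iron and manganese importer ZIP14, was at 257, 806 and 204 CPM in the WT vehicle livers, at 299, 243 and 201 CPM in the vehicle livers labelled KO, at 391, 295 and 501 CPM in the WT APAP livers, and at 353, 298 and 648 CPM in the APAP livers labelled KO. The highest of the 12 values was that of WT vehicle replicate 2, and the treatments overlapped. The log2 fold change was 0.36 ± 0.34 (edgeR's adjusted p = 0.494). Leaving out WT vehicle replicate 2, it was 0.79 and passed (edgeR's adjusted p = 0.0169).

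*Slc39a4* (gene ID 72027, chromosome 15 from 76612383 to 76618506, - strand), which encodes the importer ZIP4 that takes up zinc from the diet in the intestine, was called lower after APAP under the KO label. It was at 39.0, 49.4 and 40.1 CPM in the WT vehicle livers, at 39.7, 55.3 and 43.0 CPM in the vehicle livers labelled KO, at 43.0, 52.2 and 31.0 CPM in the WT APAP livers, and at 31.7, 19.3 and 28.2 CPM in the APAP livers labelled KO. The WT groups overlapped, and by CPM the 3 APAP livers labelled KO lay below the 6 vehicle livers. The share of all genes separated in this way was not counted. By TPM, APAP replicate 1 of the KO label was at 27.2, inside the vehicle range of 25.1 to 40.3. Over both genotype labels the log2 fold change was -0.41 ± 0.19 and did not pass (edgeR's adjusted p = 0.133), except without WT APAP replicate 2, when it was -0.53 (edgeR's adjusted p = 0.0453).

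Counted over both genotype labels, 3 of the 7 members were higher at an adjusted p under 0.05 (*Mt1*, *Slc30a1* and *Slc30a10*), where 14.0% of the 16509 genes tested were higher and 11.4% lower by edgeR, and 0 members were lower. The median log2 fold change of the members was 0.95, against 0.01 over all genes tested. Each APAP liver was above each vehicle liver for 1 of 7 members, *Slc30a1*, and for 7.11% of all genes. The count of members called ranged from 1 to 5 with a liver left out and was 5 without WT vehicle replicate 2, when *Mt2* and *Slc39a14* passed as well. In that fit 2593 genes were called higher and 2101 lower, against 2307 and 1880 with all livers. The liver left out there had the highest vehicle values of *Mt1*, *Mt2*, *Slc30a10* and *Slc39a14*.

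**Figure D3:**
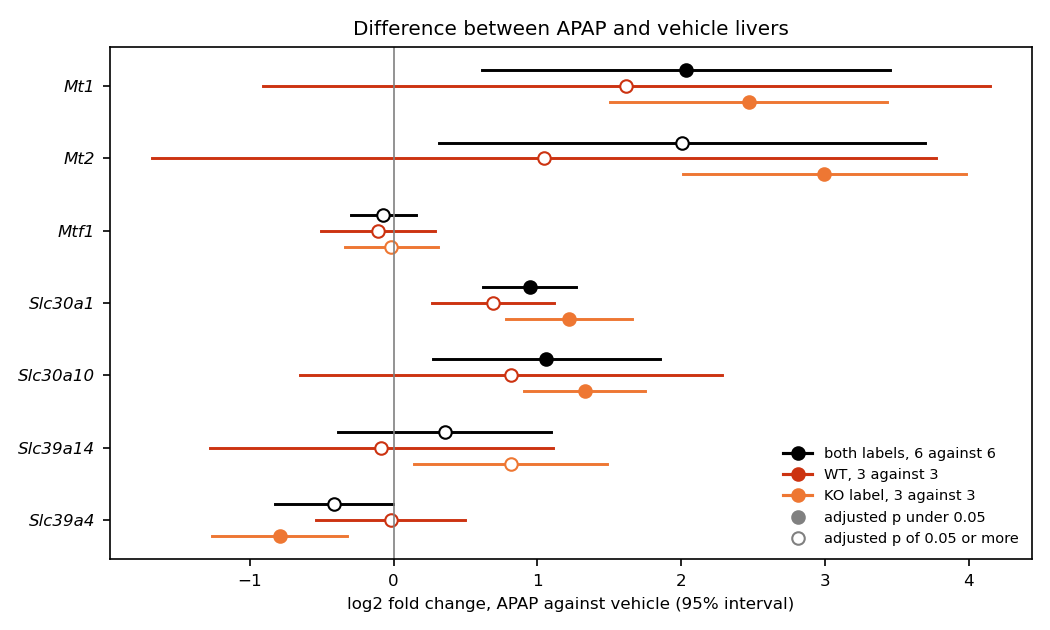
Log2 fold change of each member between APAP and vehicle livers with its 95% interval, over both genotype labels (black), in WT (red) and under the KO label (orange), filled where the adjusted p of edgeR was under 0.05. *Slc30a1* is to the right of 0 in all 3 fits, and the WT intervals of *Mt1* (-0.91 to 4.15) and *Mt2* (-1.68 to 3.77) are the widest.

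In WT mice alone, 3 against 3 livers, 0 of 7 members passed, where 1.62% of 15693 genes were called higher and 0.427% lower by edgeR's quasi-likelihood test. At an unadjusted p under 0.05, 1 member (*Slc30a1*) and 2817 genes were found. *Mt1* differed by 1.62 ± 1.09 and *Mt2* by 1.04 ± 1.17 on the log2 scale (edgeR's adjusted p = 0.476 and 0.677). Without WT vehicle replicate 2, a fit with 2 vehicle livers, the values were 3.99 and 4.03 (edgeR's adjusted p = 0.0612 and 0.0436). Other livers lowered them: *Mt1* was at 0.78 without WT APAP replicate 1, and *Mt2* at 0.52, 0.51 and 0.50 without WT APAP replicate 1, WT vehicle replicate 1 or WT vehicle replicate 3. Neutrophil markers were higher in each WT APAP liver than in WT vehicle replicates 1 and 3, and their part in these values was not tested. *Slc30a1* differed by 0.69 ± 0.18 (edgeR's adjusted p = 0.104) and was the only member with each WT APAP liver above each WT vehicle liver, as were 13.3% of genes. With the Wald test of DESeq2, and with all 12 livers in a common fit, *Slc30a1* passed in WT. *Slc30a10* differed by 0.82 ± 0.63, *Slc39a14* by -0.08 ± 0.51, *Slc39a4* by -0.02 ± 0.22 and *Mtf1* by -0.11 ± 0.17 (edgeR's adjusted p = 0.537 to 0.978).

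Under the KO label, 4 of 7 members were higher after APAP and 1 was lower, where 13.0% of 15665 genes were called higher and 9.60% lower. *Mt2* rose by 3.00 ± 0.43, *Mt1* by 2.47 ± 0.42, *Slc30a10* by 1.33 ± 0.18 and *Slc30a1* by 1.22 ± 0.19 on the log2 scale (edgeR's adjusted p = 0.00323, 0.00578, 0.00279 and 0.00444), and all 4 calls were kept in 6 of 6 fits with a liver left out. *Slc39a4* fell by 0.79 ± 0.21 on the log2 scale (edgeR's adjusted p = 0.0275), a call kept in 3 of 6 such fits. It was lost without APAP replicate 3, vehicle replicate 2 or vehicle replicate 3 of that label (edgeR's adjusted p = 0.0646, 0.0974 and 0.062). *Slc39a14* differed by 0.81 ± 0.29 and did not pass (edgeR's adjusted p = 0.0792), but passed without APAP replicate 2 (edgeR's adjusted p = 0.0396) and with the Wald test of DESeq2 (adjusted p = 0.0192). Each APAP liver was above each vehicle liver for the 4 members that rose, and for *Slc39a14* when the 6 livers were scaled on their own, against 22.4% of all genes. On the values given above, scaled over 12 livers, *Slc39a14* overlapped by a margin of 298 against 299 CPM. With all 12 livers in a common fit, whose spread includes WT vehicle replicate 2, only *Slc30a1* and *Slc39a4* passed, and *Mt1* and *Mt2* had adjusted p = 0.11 and 0.0835 by edgeR.

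No member differed between the genotype labels past the adjusted threshold. After APAP, when the neutrophil markers of each WT liver lay above those of each liver labelled KO (their part was not tested), 0.0309% of 16174 genes were called between WT and the KO label and 0 of 7 members. *Slc39a4* was higher in WT by 0.69 ± 0.26 on the log2 scale (edgeR's unadjusted p = 0.0275, adjusted p = 0.958), and it was the only member at an unadjusted p under 0.05, as were 536 genes in all. The difference was 0.89 ± 0.54 for *Mt1*, 0.51 ± 0.49 for *Mt2* and -0.25 ± 0.21 for *Slc30a1*. With vehicle, 0.0262% of 15262 genes and 0 of 7 members were called, 0 members and 1154 genes had an unadjusted p under 0.05, and *Mt1* and *Mt2* differed by 1.73 ± 1.02 and 2.46 ± 1.18. These values changed sign, to -0.66 and -0.55, without WT vehicle replicate 2. The test of whether the APAP response differed between the labels called 0.00% of 16509 genes with edgeR, 848 of which had an unadjusted p under 0.05, and DESeq2 called 7 higher and 2 lower. Among the members *Slc39a4* had an interaction of 0.77 ± 0.32 on the log2 scale (edgeR's unadjusted p = 0.0338, adjusted p = 0.872), with a 95% interval from 0.07 to 1.48. That of *Mt2* was -1.96 ± 1.4 and became 1.03 without WT vehicle replicate 2, so its sign depended on that liver.

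Ordered by group mean, *Slc30a1* ran from 60.1 ± 15.7 CPM (mean ± SD of 3 livers) in APAP livers labelled KO over 50.04 ± 4.93 CPM in WT APAP and 31.2 ± 5.27 CPM in WT vehicle to 25.9 ± 2.72 CPM in vehicle livers labelled KO. The only neighbours in this order whose livers did not overlap were the middle ones, WT APAP and WT vehicle. *Mt1* ran from 2657 ± 2076 CPM in WT APAP over 1453 ± 347 CPM in APAP livers labelled KO and 874 ± 1223 CPM in WT vehicle to 264 ± 157 CPM in vehicle livers labelled KO. Every pair of neighbours overlapped for *Mt1*. *Mt2* had the same order of groups (1574 ± 958, 1118 ± 390, 771 ± 1168 and 141 ± 71.5 CPM), as had *Slc30a10* (39.4 ± 16.1, 34.6 ± 3.72, 22.5 ± 21.1 and 13.8 ± 3.28 CPM), again with overlap of all neighbours. By mean TPM the APAP groups changed places for both genes. *Mt2* was at 3757 in WT APAP and 3809 in APAP livers labelled KO, and *Slc30a10* at 10.8 and 11.2. *Slc39a14* was at 433 ± 188 CPM in APAP livers labelled KO, 423 ± 333 CPM in WT vehicle, 396 ± 103 CPM in WT APAP and 248 ± 49.1 CPM in vehicle livers labelled KO, and *Mtf1* lay between 16.4 ± 1.81 CPM in WT APAP and 20.2 ± 2.02 CPM in vehicle livers labelled KO, both with overlap of neighbours. By TPM the highest group mean of *Mtf1* was that of APAP livers labelled KO (4.95). *Slc39a4* was highest in vehicle livers labelled KO (46.0 ± 8.24 CPM) and lowest in APAP livers labelled KO (26.4 ± 6.39 CPM), with the WT groups between them at 42.9 ± 5.71 and 42.1 ± 10.7 CPM and neighbours that overlapped. Between genes, by median TPM over the 6 vehicle livers, the order was *Mt1* (572), *Mt2* (365), *Slc39a14* (70.8), *Slc39a4* (30.5), *Slc30a1* (8.72), *Mtf1* (3.85) and *Slc30a10* (3.54). After APAP it was *Mt1* (4813), *Mt2* (3926), *Slc39a14* (111), *Slc39a4* (22.5), *Slc30a1* (17.3), *Slc30a10* (11.7) and *Mtf1* (4.32). Single livers departed from it: *Slc30a1* (27.3) was above *Slc39a4* (15.4) in APAP replicate 2 of the KO label, and *Slc30a10* (11.7) above *Slc30a1* (7.66) in WT vehicle replicate 2.

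WT vehicle replicate 2 separated the members. For *Mt1*, *Mt2*, *Slc30a10* and *Slc39a14* this liver was above the other 5 vehicle livers, while *Slc30a1*, *Slc39a4* and *Mtf1* stayed within their range. Among related genes with enough reads to be compared, this liver was also highest for 4 of 7 other SLC30 exporter genes. The same held for 3 of 11 other SLC39 importer genes, 2 of 12 copper and manganese genes and 1 of 8 glucocorticoid-responsive genes. The share of all genes for which it was the highest vehicle liver was not counted. Among genes named after their values were seen, the acute phase genes *Lcn2* and *Saa2*, which encode an iron carrier scavenger and a serum amyloid, were at 956 and 3992 CPM there, against at most 13.8 and 16.7 CPM in the other vehicle livers. The 5 of 6 neutrophil markers with enough reads to be compared were also all above those livers. Together the 6 markers summed to 15.5 CPM there, against at most 0.840 CPM in the other vehicle livers. Of 7 targets of NRF2, the factor that answers to electrophiles, 3 were above the other vehicle livers and 1 below. The median difference of the 7 was 0.29 on the log2 scale. Relative to the median of the 6 vehicle livers, *Hmox1* was the highest of the 7 at 1.83 and *Srxn1* the lowest at -0.45. The part that the acute phase or neutrophils play in the metallothionein level of this liver was not tested.

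**Figure D4:**
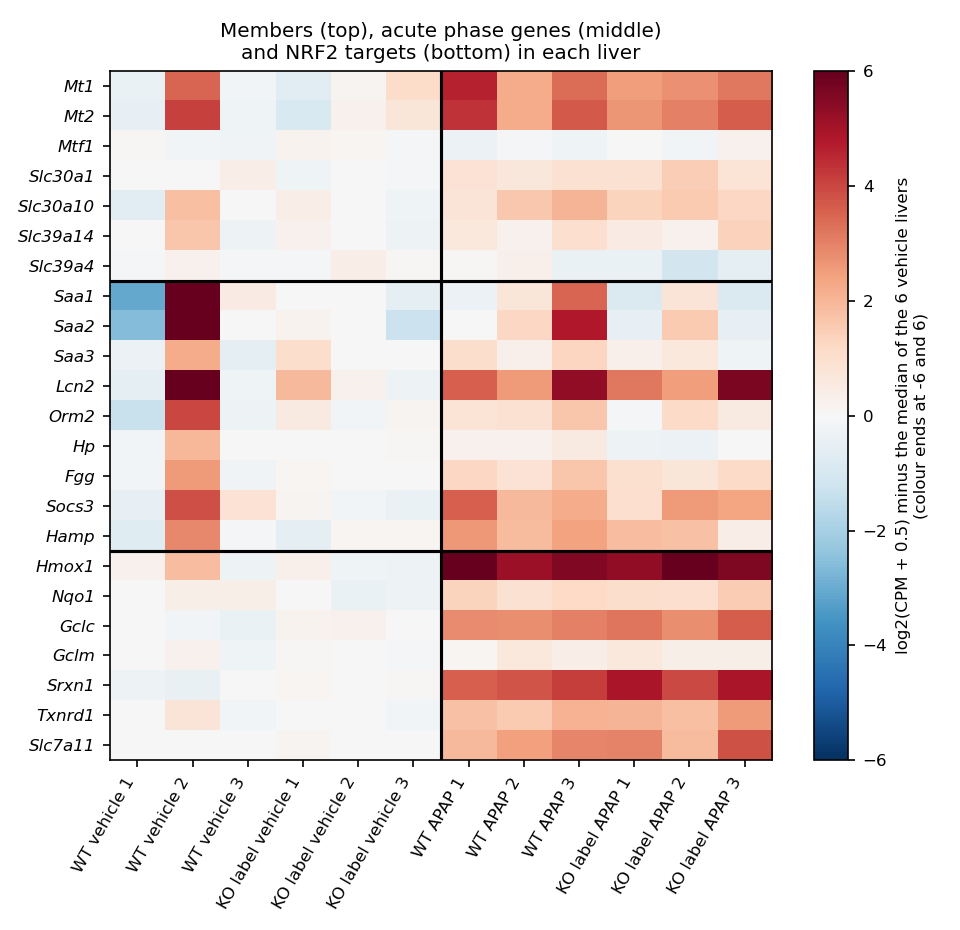
Log2(CPM + 0.5) of the members (top), 9 interleukin-6-responsive and acute phase genes (middle) and 7 NRF2 targets (bottom) in each of the 12 livers, relative to the median of the 6 vehicle livers, with red above and blue below it. In WT vehicle replicate 2 all 9 acute phase genes are red together with *Mt1*, *Mt2*, *Slc30a10* and *Slc39a14*, and *Slc30a1* is not.

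Lists of related genes, chosen with earlier results of these data known, place the members among other pathways of the APAP-treated liver. All 7 NRF2 targets rose over both genotype labels (median log2 fold change 3.09, against 0.01 over all genes), among them *Srxn1* (4.35 ± 0.20), *Gclc* (3.09 ± 0.16), which makes glutathione precursor, and *Hmox1* (5.37 ± 0.43), with edgeR's adjusted p at or below 4.87e-06 for these 3. *Slc7a11*, the cystine importer, went from at most 4 reads per vehicle liver to 73 to 461 reads after APAP. Of 9 interleukin-6-responsive and acute phase genes 0 passed (median -0.15), and the smallest p was that of *Hamp*, which encodes hepcidin, at 1.14 ± 0.52 (edgeR's adjusted p = 0.13). WT vehicle replicate 2 was above the other 5 vehicle livers for all 9, and no fit of this list without that liver is given. Under the KO label, where that liver takes no part, 4 of these 9 rose (median log2 fold change 0.81). There 13.0% of all genes tested were called higher (14.0% over both labels). Of 8 glucocorticoid-responsive genes, *Sgk1* rose (1.3 ± 0.29), *Tsc22d3*, a glucocorticoid-induced gene, and *Zbtb16* fell (-1.34 ± 0.31 and -0.75 ± 0.21), and the other 5 did not pass.

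The other members of both transporter families were called about as often as genes in general (14.0% higher and 11.4% lower in this comparison). Of the 8 other SLC30 exporter genes 7 were tested, and 1 rose: *Slc30a4*, which encodes ZNT4, by 0.47 ± 0.11 on the log2 scale (edgeR's adjusted p = 0.00733), from 7.33 to 9.97 CPM in the vehicle livers to 10.3 to 13.7 CPM in the APAP livers. *Slc30a2* had 0 reads in each liver and was not tested. Of the 12 other SLC39 importer genes 11 were tested, 1 rose and 2 fell. *Slc39a6*, which encodes ZIP6, rose by 1.02 ± 0.20, from 1.36 to 2.63 CPM up to 2.78 to 4.67 CPM. *Slc39a2* fell by 1.31 ± 0.27 at a low level of 0.607 to 3.29 CPM, and *Slc39a9*, whose product ZIP9 is found in the Golgi, fell by 0.62 ± 0.12, from 43.7 to 55.3 CPM to 23.0 to 38.3 CPM (edgeR's adjusted p = 0.00296, 0.00367 and 0.00229). All 4 of these calls were kept in 12 of 12 fits with a liver left out. The median log2 fold change was 0.10 for the other exporters and -0.16 for the other importers. Among 12 genes of copper and manganese handling, the copper importer gene *Slc31a1* fell by 0.89 ± 0.11 (edgeR's adjusted p = 0.000187), from 134 to 198 CPM to 71.8 to 98.8 CPM, and *Tmem165*, a Golgi manganese transporter, rose by 0.40 ± 0.14 (edgeR's adjusted p = 0.0454), a call kept in 2 of 12 such fits.

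**Figure D5:**
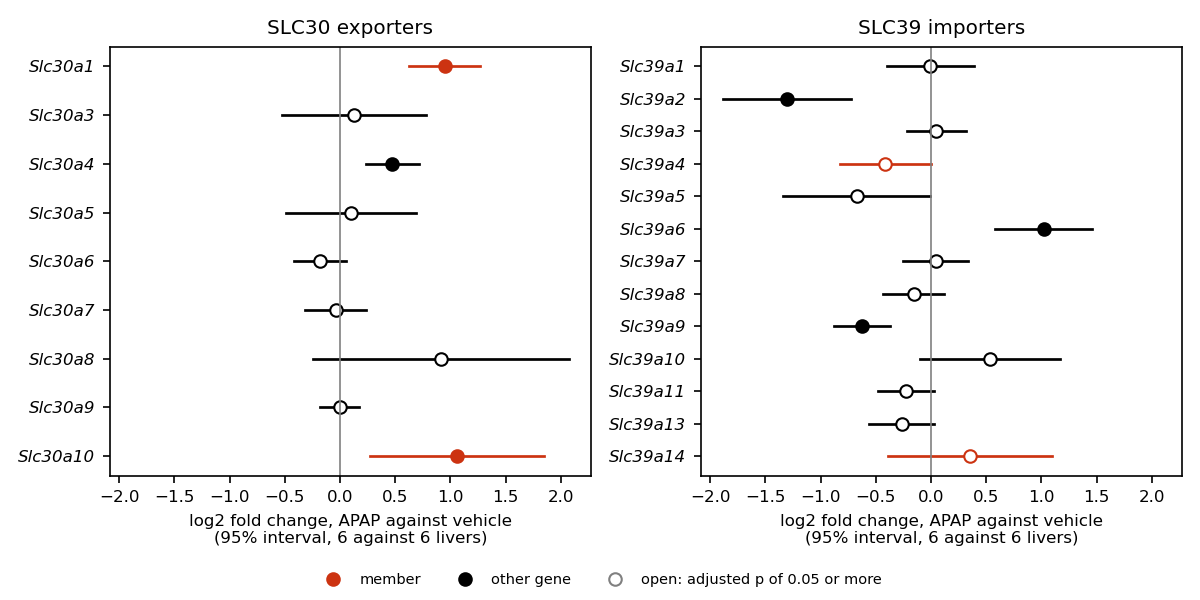
Log2 fold change between the 6 APAP and 6 vehicle livers, with its 95% interval, of the tested SLC30 exporter genes (left) and SLC39 importer genes (right), with members in red and filled points for an adjusted p of edgeR under 0.05. *Slc30a1* (0.95), *Slc30a10* (1.06) and *Slc39a6* (1.02) are the filled points farthest to the right, and *Slc39a2* (-1.31) is the farthest to the left.

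The genes whose profile over the 12 livers was most like that of each member were found by the root mean square difference of mean-centred log2 CPM among 11417 other genes with a mean log2 CPM of at least 1. For *Mt1* they were *Mt2* (0.29), *H3f3b* (0.54) and *Arid5a* (0.59), and for *Mt2* they were *Mt1*, *Arid5a* (0.63) and *Junb* (0.70), against a standard deviation of 1.77 and 1.93 of the genes themselves. *Slc30a1* was nearest to *Zbtb2* (0.16), *Gfod1* (0.19) and *Ccnyl1* (0.20), and *Slc30a10* to *Pspc1*, *Mical2* and *Tle3* (0.34 each). *Slc39a14* was nearest to *Serpina3m* (0.18), *Xbp1* (0.23) and *Tnfrsf1a* (0.27), and *Slc39a4* to *Mapre2* (0.19), *Elovl1* (0.19) and *Olfm1* (0.22). *Mtf1*, whose own standard deviation was 0.19, was nearest to *Plod3* (0.08), *Srgap2* and *Mre11a* (0.09 each). All values share the same 12 libraries and their scaling.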

How the data were processed

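Poly-A RNA of 12 livers was sequenced with paired ends. The submitters' processing notes name FastQC 0.11.7, Trimmomatic 0.38, HISAT2 2.1.0, Bowtie2 2.3.4.1 and StringTie 2.1.3b and the mouse build GRCm38. The counting tool and its strand setting are not given in the sources used here. The authors deposited a table of read counts, FPKM and TPM per gene and liver. Counts were tested as deposited, TPM were used for levels between genes and FPKM only for inspection. CPM were computed with TMM factors over 12 livers. Genes were filtered with filterByExpr, fitted with edgeR 4.0.16 (quasi-likelihood test, R 4.3.3) and adjusted with the Benjamini-Hochberg method at 0.05, on all genes. Nothing states separate litters or batches, so p-values measure the spread between these livers. APAP was compared with vehicle over both labels (genotype label as a term), within each label, between labels within each treatment, and as an interaction. DESeq2 1.42.0, limma 3.58.1 on quantile-normalized log2(TPM + 1) and log2(TPM + 0.1), no filter, a replicate block, all 12 livers in a common fit and each liver left out were alternatives. edgeR's newer quasi-likelihood method and leaving out WT vehicle replicate 2 and WT APAP replicate 1 together were added after seeing the data. The code was tested on simulated counts with 200 genes changed 4-fold in each comparison. It recovered 83% of them over both labels, 83.5% under the KO label and 83% between labels with vehicle. The share was 65.5% in WT, 70.5% between labels after APAP and 48% for the interaction. The members and lists were chosen with earlier results of these data known. Named genes are the 7 members, from each list at most 4 genes that passed (otherwise that with the smallest p), and the 3 nearest genes to each member. *Mt3*, *Mt4*, *Slc30a2*, *Lcn2* and *Saa2* were named after their values were seen. Sequences are from RefSeq (GRCm38.p6) and GENCODE vM21.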

Additional observations from a re-analysis of the deposited data

Results flagged for a closer look

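Each member was looked at in the 6 vehicle and the 6 APAP livers, 14 gene and treatment groups in all, for a highest or lowest liver separated from the rest by more than Dixon's 95% critical value. The critical value flags about 1 in 20 groups of independent, normally distributed values, and 6 groups were flagged here. The 6 cannot be set against that rate, because CPM were used without a log transform and most flags come from the same liver. With vehicle, WT replicate 2 stood above the other livers for *Mt1* (2286 CPM), *Mt2* (2119.6 CPM), *Slc30a10* (46.7 CPM) and *Slc39a14* (806 CPM). After APAP, WT replicate 1 stood above the others for *Mt1* (4967 CPM), and replicate 2 of the KO label for *Slc30a1* (78.1 CPM).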

How the results depend on the processing

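The rise of *Slc30a1* over both genotype labels and the 4 rises under the KO label kept their direction in all alternatives run, but with all 12 livers in a common fit the members called under the KO label went from 5 to 2. The members called over both labels were 1 to 5 with a liver left out and 5 without WT vehicle replicate 2 and WT APAP replicate 1 together. Without those 2 livers 3110 genes were called higher and 2517 lower. In WT 1 member was called with DESeq2 and 1 with all 12 livers, 0 to 1 with a liver left out, and under the KO label 4 to 6. With a liver left out, genes called higher and lower were 1921 to 2683 and 1304 to 2128 over both labels, 41 to 316 and 0 to 126 in WT (lowest without vehicle replicate 3, and also low without vehicle replicate 1 or APAP replicate 3; highest without APAP replicate 2), and 1261 to 1967 and 734 to 1401 under the KO label (lowest without vehicle replicate 2). They were 1 to 4 and 0 to 3 between labels after APAP, 0 to 9 and 0 to 7 with vehicle, and 0 to 1 and 0 to 1 for the interaction. DESeq2 called 877 and 536 genes in WT, 21 and 8 between labels after APAP, 62 and 75 with vehicle, and 7 and 2 for the interaction. The common fit called 968 and 555 in WT, 844 lower under the KO label, and 0 and 0 between labels after APAP and with vehicle. Between labels after APAP limma called 6 lower (pseudocount 1) and 5 (pseudocount 0.1), and with vehicle 1 lower (pseudocount 1). The cause was not tested.

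The shared replicate numbers did not pair the livers (18 pairs, correlations of -0.42 to 0.20, 1 of them over 0.1), and a liver correlated best with its own number in another group in 3 of 36 combinations. With the replicate block 61 and 1 genes were called in WT, 1 and 0 between labels after APAP, 0 and 0 with vehicle, 1991 and 1541 over both labels, with 4 members, and 1596 and 1165 under the KO label, with 4 members, where *Slc39a4* lost its call (edgeR's adjusted p = 0.0648). Over both labels *Mt2* passed with it (edgeR's adjusted p = 0.0499).

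Signs changed as follows. In WT *Slc39a14* was at 0.19 with the block and 0.17 with limma at either pseudocount, and between labels after APAP *Mt2* was at -0.19 with limma at either pseudocount. Without WT vehicle replicate 2 and WT APAP replicate 1 together the interaction was 0.68 for *Mt1*, 0.51 for *Mt2* and 0.86 for *Slc30a10*. With a liver left out the log2 values ran from -0.44 to 0.78 (*Slc39a14*) and -0.22 to 0.16 (*Slc39a4*) in WT, and from -0.12 to 0.077 (*Mtf1*) under the KO label. Between labels after APAP they ran from -0.014 to 0.90 (*Mt2*), -0.11 to 0.46 (*Slc30a10*) and -0.32 to 0.29 (*Slc39a14*). With vehicle they ran from -0.66 to 2.31 (*Mt1*), -0.55 to 2.98 (*Mt2*), -0.42 to 1.10 (*Slc30a10*), -0.11 to 1.10 (*Slc39a14*) and -0.22 to 0.052 (*Slc39a4*). For the interaction they ran from -1.71 to 1.52 (*Mt1*), -2.50 to 1.03 (*Mt2*), -0.18 to 0.031 (*Mtf1*) and -0.91 to 0.60 (*Slc30a10*). With 3 livers per group and 1 divergent WT vehicle liver, the spread between livers and not depth limited the metallothionein comparisons.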
